A study of Mus musculus with 9 samples.

Results

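Transcripts of the bone morphogenetic protein (BMP) and transforming growth factor beta (TGF-beta) pathways were measured in whole newborn mouse lenses. The set comprised 35 genes, picked by symbol out of the 47729 genes in the RNA-Seq tables: 6 ligands, 10 receptors, 6 SMAD proteins that carry the signal, 4 inhibitory SMAD and SMURF genes, 5 genes for antagonists and a latency protein, and 4 ID genes that the signal induces. Lenses came from *FVB/N* wild type mice and from 2 lines that carry a Cre transgene on the same *FVB/N* background. *P0-3.9GFPCre* mice were hemizygous for a GFP and CRE fusion driven by a short *Pax6* P0 promoter fragment. *Le-Cre* mice were hemizygous for nuclear CRE with GFP behind an internal ribosome entry site, driven by a longer *Pax6* P0 fragment. Both promoters act in the head surface ectoderm that gives rise to the lens and cornea, so that CRE is already present in the precursors of the cells sampled at birth, and *Le-Cre* is 1 founder line. *P0-3.9GFPCre* is also mosaic outside the eye. Each line had 3 pools, and each pool held 6 lenses from 3 mice.

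BMP and TGF-beta ligands are secreted dimers that bind type II receptors, which in turn activate type I receptors. BMP type I receptors phosphorylate SMAD1, SMAD5 and SMAD9, whereas activin and TGF-beta type I receptors phosphorylate SMAD2 and SMAD3, and both groups enter the nucleus with SMAD4. BMP signalling is known for its roles in lens induction and lens fibre differentiation, and TGF-beta is known for driving lens epithelial cells towards a mesenchymal state in some cataracts. The comparisons address whether a Cre line differs from its wild type background in these genes.

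The 9 libraries held 20670968 to 28098059 expected counts, which are the estimates of reads per gene by the quantification program RSEM, and crystallin genes took 39.1% to 43.0% of them. The tissue label was checked with 6 lens fibre markers, whose summed level was 139138 to 164406 TPM (transcript abundance scaled for gene length and library size). Most of that sum was *Cryaa* alone, at 123596 to 151085 TPM. The 5 lens epithelium markers summed to 213 to 232 TPM in *FVB/N*, 210 to 230 TPM in *P0-3.9GFPCre* and 186 to 212 TPM in *Le-Cre*. Of 5 cornea and conjunctiva markers, *Krt12*, *Krt14* and *Trp63* were listed at 0 in every pool. *Krt13* was at 0.29 TPM in *FVB/N* replicate 2, 0.23 TPM in *P0-3.9GFPCre* replicate 1 and 0.25 TPM in *Le-Cre* replicate 1, and at 0 in the other 6 pools. *Krt5* was at 0.04 TPM in *Le-Cre* replicate 3 and at 0 elsewhere. Summed CPM of Y-linked genes (CPM being counts scaled to library size after TMM normalization) was 126 to 193 in *FVB/N*, 1.66 to 135 in *P0-3.9GFPCre* and 0.633 to 71.8 in *Le-Cre*, so the sex makeup of the pools differed between and within lines. Markers of other cells were also present, with 8 endothelium markers summing to 43.8 to 65.3 TPM per pool. The 7 mesenchyme and pericyte markers summed to 6.26 to 11.3 TPM and the 8 macrophage markers to 0.80 to 2.66 TPM. How much of the level or difference of any pathway gene came from such cells was not tested. In bulk lens RNA, fewer cells of a type and less RNA per cell cannot be told apart.

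Newborn lenses expressed genes of every role in the BMP and TGF-beta pathways, and 1 or 2 genes dominated most roles. Mean TPM over the 9 pools exceeded 10 for 12 genes and stayed under 1 for 8 genes, and 19 of the 35 lay above the median tested gene. The summed level of all 35 genes was 633 to 760 TPM, of which the ID genes made up most. The order of levels within each role is given below per length in TPM, as a description and with no test.

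**Figure D1:**
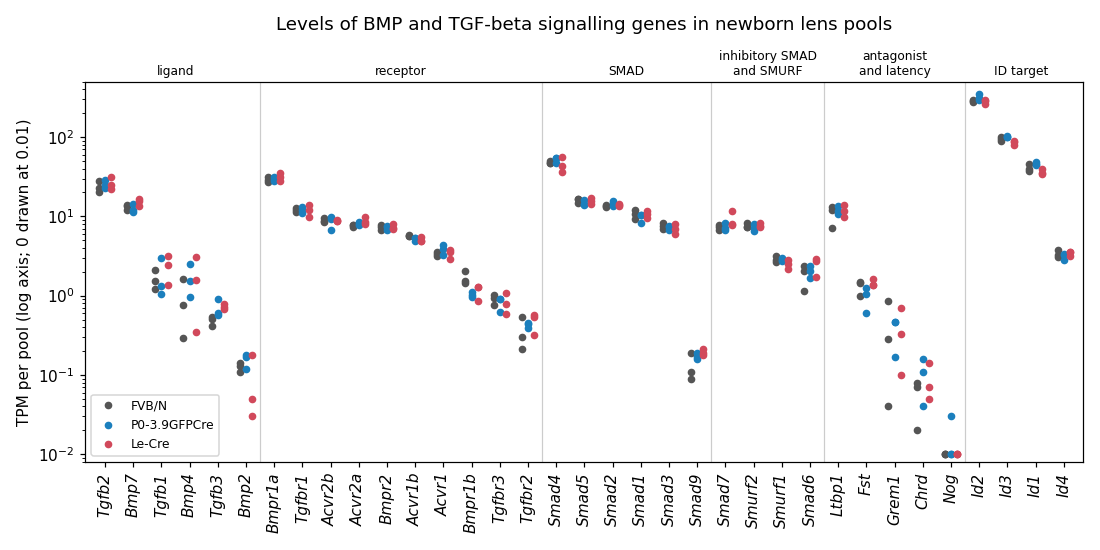
Level of each of the 35 genes in each pool in TPM (log axis; a value of 0 is drawn at 0.01), grouped by role and ordered by mean level; each point is 1 pool and colours mark the 3 lines. *Id2* (263 to 351 TPM) and *Id3* (79.2 to 103 TPM) sit highest, *Nog* is at 0 in 8 of 9 pools, and the points of the 3 lines largely overlap within a gene.

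Among ligands, *Tgfb2* and *Bmp7* predominated. *Tgfb2*, which encodes the TGF-beta ligand best known from the eye, was measured at 22.9, 28.1 and 20.6 TPM in *FVB/N*, 24.5, 28.7 and 23.1 TPM in *P0-3.9GFPCre* and 21.9, 31.7 and 25.0 TPM in *Le-Cre*. It accounted for 86.2% to 94.7% of summed TGF-beta ligand TPM, against 3.44% to 10.6% for *Tgfb1* and 1.69% to 3.23% for *Tgfb3*. *Bmp7*, which encodes a BMP required for early eye formation, was measured at 13.7, 12.0 and 14.0 TPM in *FVB/N*, 14.1, 12.1 and 11.4 TPM in *P0-3.9GFPCre* and 16.3, 15.6 and 13.7 TPM in *Le-Cre*. It contributed 81.8% to 97.3% of the sum of *Bmp2*, *Bmp4* and *Bmp7*. *Tgfb2* was above *Bmp7* in 9 of 9 pools without overlap of their ranges, whereas *Tgfb1* (mean 1.91 TPM) and *Bmp4* (1.40 TPM) kept their order in only 5 of 9 pools. *Bmp2* was the lowest ligand, at 0.03 to 0.18 TPM.

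Among receptors, *Bmpr1a*, a BMP type I receptor gene, was highest. Its level was 28.8, 31.0 and 26.8 TPM in *FVB/N*, 31.3, 28.3 and 29.2 TPM in *P0-3.9GFPCre* and 31.1, 34.8 and 27.7 TPM in *Le-Cre*. It made up 82.8% to 88.1% of the sum of the 3 BMP type I receptor genes in this set, followed by *Acvr1* (8.99% to 12.9%) and *Bmpr1b* (2.38% to 6.32%). *Tgfbr1*, which encodes the TGF-beta type I receptor, was second among all receptors at 9.93 to 13.7 TPM, and *Acvr1b*, which encodes an activin type I receptor, ranged from 4.90 to 5.85 TPM. *Acvr2b*, *Acvr2a* and *Bmpr2*, which encode the type II receptors for activins and BMPs, had mean levels of 8.74, 8.15 and 7.27 TPM, and neighbours in this order overlapped. *Tgfbr2*, the type II receptor gene for TGF-beta itself, was the lowest receptor at 0.21 to 0.57 TPM. It contributed 0.870% to 2.23% of the 4 type II receptor genes in this set, and its expected counts were low in all lines. *Tgfbr3*, which encodes the co-receptor betaglycan, was at 0.58 to 1.08 TPM.

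Among SMAD genes, the shared partner *Smad4* was highest, with 49.6, 46.8 and 46.9 TPM in *FVB/N*, 54.4, 54.9 and 47.4 TPM in *P0-3.9GFPCre* and 42.8, 55.5 and 36.4 TPM in *Le-Cre*. In TPM the lowest 2 *Smad4* values were both *Le-Cre* pools, and the highest was the remaining *Le-Cre* pool. This did not hold for CPM, where *Le-Cre* was at 69.9, 75.2 and 66.7. The lowest and the highest *Smad4* CPM, 64.8 and 78.0, were both *FVB/N* pools. *Smad5* (mean 15.5 TPM) and *Smad1* (10.3 TPM) shared the BMP arm, with 54.4% to 63.8% and 35.8% to 44.9% of summed *Smad1*, *Smad5* and *Smad9* TPM. *Smad9* was close to absent at 0.09 to 0.21 TPM. In the activin and TGF-beta arm, *Smad2* gave 63.1% to 69.5% of the sum of *Smad2* and *Smad3*, whose mean levels were 14.1 and 7.24 TPM.

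Among the intracellular inhibitors, *Smad7* (mean 7.95 TPM), which blocks both arms, and *Smurf2* (7.55 TPM), a ubiquitin ligase for receptors and SMAD proteins, had overlapping ranges. *Smurf1* (2.73 TPM) and *Smad6* (2.10 TPM), which mainly opposes BMP signals, were lower and overlapped each other. Of the extracellular regulators, only *Ltbp1*, which encodes a protein that holds latent TGF-beta in the matrix, exceeded 2 TPM in any pool, at 7.11 to 14.1 TPM. *Fst*, which encodes the activin antagonist follistatin, was at 0.61 to 1.61 TPM, and *Grem1*, which encodes a BMP antagonist, at 0.04 to 0.86 TPM. The classical BMP antagonists were at the limit of detection: *Chrd* had 2 to 11 expected counts per library, and *Nog* had 1 count in 1 *P0-3.9GFPCre* pool and 0 elsewhere. A count of 0 allows up to 3 counts, or 0.107 to 0.145 CPM at these depths, and this limit covers counting error only.

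The ID genes encode inhibitors of helix-loop-helix transcription factors, and *Id1*, *Id2* and *Id3* are well known as direct targets of BMP signalling. *Id2* was the highest of all 35 genes, with 292, 287 and 277 TPM in *FVB/N*, 313, 351 and 290 TPM in *P0-3.9GFPCre* and 263, 292 and 286 TPM in *Le-Cre*. It made up 65.8% to 70.0% of summed ID gene TPM, followed by *Id3* (20.5% to 23.6%), *Id1* (8.30% to 11.0%) and *Id4* (0.560% to 0.920%). The order *Id2*, *Id3*, *Id1*, *Id4* held in 9 of 9 pools with no overlap between neighbours.

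The promoters of *Id2* and *Id3* are shown because these were the highest target genes, and *Id3* also had the lower *Le-Cre* counts described below. They are the 250 bases before the RefSeq transcription start on build GRCm38.p6, at chr12:25096093-25096342 on the minus strand for *Id2* and at chr4:136143572-136143821 on the plus strand for *Id3*, each printed 5′ to 3′ in the direction of transcription. Capitals mark matches on either strand to GGCGCC, a core of BMP-responsive elements, and to CAGAC, a SMAD binding element that reads GTCTG when it lies on the other strand.
Id2: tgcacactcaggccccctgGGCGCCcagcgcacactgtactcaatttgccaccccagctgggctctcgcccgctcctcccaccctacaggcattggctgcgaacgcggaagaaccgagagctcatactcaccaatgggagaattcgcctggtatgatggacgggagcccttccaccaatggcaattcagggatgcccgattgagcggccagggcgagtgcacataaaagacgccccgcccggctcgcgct
Id3: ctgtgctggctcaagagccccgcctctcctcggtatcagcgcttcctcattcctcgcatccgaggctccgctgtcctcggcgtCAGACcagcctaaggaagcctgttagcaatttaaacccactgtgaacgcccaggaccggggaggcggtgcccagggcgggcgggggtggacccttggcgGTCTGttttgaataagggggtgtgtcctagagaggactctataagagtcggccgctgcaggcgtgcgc
The *Id2* window held 1 GGCGCC, 231 bases before the start, and no CAGAC, while the *Id3* window held 2 CAGAC matches, 167 and 68 bases before the start, and no GGCGCC. The window of *Id4* on chromosome 13 held 1 GGCGCC, 148 bases before the start. Of 32851 mouse promoter windows of this length in the same table, 9.59% held GGCGCC and 42.2% held CAGAC. The matches describe the letters only and no binding was measured.

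None of the 35 genes differed between lines past the cutoff, which required both a 1.5-fold difference and an adjusted p no higher than 0.05. Of the 35 genes, 33 passed the filter on low counts, and *Nog* and *Chrd* did not. Over all 15557 tested genes, edgeR's quasi-likelihood test called 10 genes between *Le-Cre* and *FVB/N* (0.0643%) and 0 (0%) both between *P0-3.9GFPCre* and *FVB/N* and between *Le-Cre* and *P0-3.9GFPCre*. The 10 calls fell to 0 or 1 when any of the 3 *FVB/N* or 3 *Le-Cre* pools was left out. The count over the 33 genes stayed at 0 with DESeq2, with or without a prior on fold changes. The median log2 fold change of the 33 genes was -0.04, -0.06 and 0.05 in the order of comparisons just given, beside -0.0040, 2.3e-05 and -0.0018 over all tested genes. The median standard error of a single gene was 0.12, whereas *Bmp2*, *Bmp4* and *Grem1* had standard errors of 0.63 to 0.83. The 3 comparisons share pools, so their values below are not independent of each other.

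**Figure D2:**
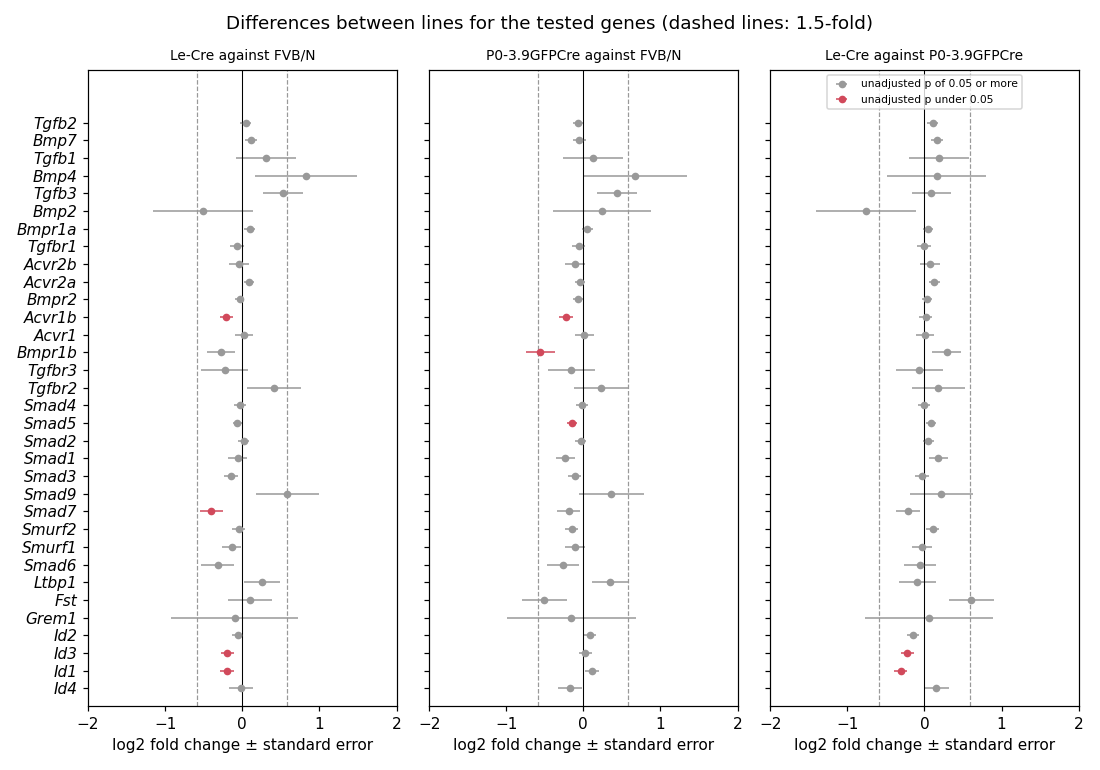
Log2 fold change (first line over second) with its standard error for the 33 tested genes in the 3 comparisons; dashed lines mark 1.5-fold and red marks an unadjusted p under 0.05. The red points are 4, 3 and 2 genes from left to right, all lower in the first line, and *Bmp2*, *Bmp4* and *Grem1* have the widest bars.

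Between *Le-Cre* and *FVB/N*, the inhibitor *Smad7*, the activin receptor gene *Acvr1b* and the BMP targets *Id1* and *Id3* had lower mean counts in *Le-Cre*, by 12.5% to 24.2%, but no gene passed adjustment. These 4 of 33 genes had an unadjusted p under 0.05, all in the lower direction, compared with 7.94% of all tested genes in either direction and 4.35% in the lower direction. The count was 2 without *FVB/N* replicate 1, 0 without *Le-Cre* replicate 2 and 1 without *Le-Cre* replicate 3, and DESeq2 gave 2. With the effective length of each pool as an offset, an alternative added after the data were seen, none of the 4 kept an unadjusted p under 0.05, and 1 other gene had one, *Bmpr1b* at -0.60 ± 0.22 (SE). *Acvr1b* was measured at 23.5, 23.7 and 24.7 CPM in *FVB/N* and 22.5, 18.8 and 20.9 CPM in *Le-Cre*. All *Le-Cre* pools were below all *FVB/N* pools, with a log2 fold change of -0.21 ± 0.09 (SE; edgeR adjusted p = 0.591). *Id3* was measured at 100, 105 and 117 CPM in *FVB/N* and 87.5, 90.6 and 103 CPM in *Le-Cre*. The groups overlapped through the third *Le-Cre* pool, and the log2 fold change was -0.19 ± 0.08 (SE; edgeR adjusted p = 0.591). *Id1* was measured at 31.9, 37.7 and 35.3 CPM in *FVB/N* and 33.3, 28.0 and 30.0 CPM in *Le-Cre*, again with overlap, and its log2 fold change was -0.20 ± 0.09 (SE; edgeR adjusted p = 0.628). The most abundant ID gene, *Id2*, differed by -0.06 ± 0.08 (SE), and *Id4* by -0.02 ± 0.16. The summed lens epithelium markers were lower in all *Le-Cre* pools than in all *FVB/N* pools, the nearest pools being 212 and 213 TPM. Of the 5 markers, *Pdgfra* alone had an unadjusted p under 0.05, with a log2 fold change of -0.40 in *Le-Cre* and -0.28 in *P0-3.9GFPCre* against *FVB/N*. The part of the epithelium markers in the lower counts of either Cre line was not tested.

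The pools of *Le-Cre* and *FVB/N* did not overlap for 4 of the 33 genes (12.1%), compared with 13.5% of all tested genes. *Tgfb3* and *Acvr2a* were higher in all *Le-Cre* pools, and *Acvr1b* and *Smad7* were lower, though the log2 fold change of *Smad7* turned positive (0.30) with the length offset. *Tgfb3* was at 1.70, 1.59 and 1.39 CPM in *FVB/N* and 2.24, 2.30 and 2.21 CPM in *Le-Cre*, and its log2 fold change was 0.53 ± 0.26 (SE; edgeR adjusted p = 0.673). On the other strand, the noncoding gene models *Gm48008* and *Gm37804* shared 8.73% of the 51-base sequences of *Tgfb3* transcripts, and *Orc4* shared 6.97% of those of *Acvr2a*. Because the libraries did not keep strand, reads from these stretches cannot be told apart. For the highest gene of each remaining role, the log2 fold changes were 0.04 ± 0.07 for *Tgfb2*, 0.10 ± 0.07 for *Bmpr1a*, -0.03 ± 0.08 for *Smad4* and 0.26 ± 0.24 for *Ltbp1* (all SE). The value of *Ltbp1* was 0.54 without *FVB/N* replicate 2, 0.046 without *FVB/N* replicate 3, 0.026 without *Le-Cre* replicate 2, 0.44 without *Le-Cre* replicate 3 and 0.094 with the length offset.

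**Figure D3:**
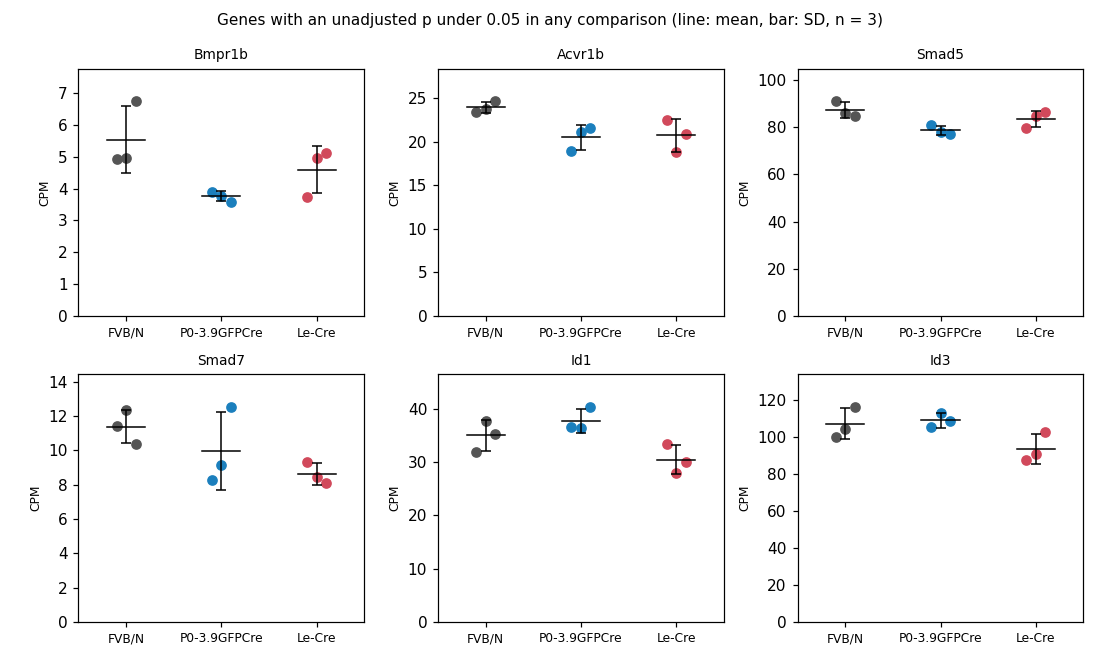
CPM per pool of the 6 genes with an unadjusted p under 0.05 in any comparison, with the mean (line) and SD (bar) of 3 pools per line and axes that start at 0. *Id1* and *Id3* are lower in all *Le-Cre* pools than in all *P0-3.9GFPCre* pools, and *Acvr1b* is highest in the 3 *FVB/N* pools.

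Between *P0-3.9GFPCre* and *FVB/N*, the receptor genes *Bmpr1b* and *Acvr1b* and the BMP-arm gene *Smad5* had lower mean counts in *P0-3.9GFPCre*, but no gene passed adjustment. Of the 33 genes, 21 had a negative log2 fold change, beside 7777 of all 15557 tested genes. In *Le-Cre* against the same *FVB/N* pools, 20 of the 33 were negative, beside 7929 of all tested genes. *Bmpr1b*, a BMP type I receptor gene, was measured at 4.91, 4.94 and 6.75 CPM in *FVB/N* and 3.90, 3.78 and 3.59 CPM in *P0-3.9GFPCre*. The groups did not overlap, and the log2 fold change was -0.56 ± 0.18 (SE; edgeR adjusted p = 0.637). *Acvr1b* was at 18.9, 21.1 and 21.6 CPM in *P0-3.9GFPCre*, lower than all of *FVB/N*, and its log2 fold change was -0.22 ± 0.09 (SE; edgeR adjusted p = 0.662). *Smad5* was at 91.1, 85.9 and 84.5 CPM in *FVB/N* and 80.7, 77.9 and 77.2 CPM in *P0-3.9GFPCre*, a log2 fold change of -0.15 ± 0.06 (SE; edgeR adjusted p = 0.674). Those 3 genes were the ones of 33 with an unadjusted p under 0.05, beside 6.81% of all tested genes, of which 3.41% were lower. The count was 6 without *FVB/N* replicate 2 and 1 without *FVB/N* replicate 3. Pools did not overlap for 4 of 33 genes (12.1%), the 3 just named and *Tgfb3*, which was higher, beside 12% of all tested genes. For the ID genes, log2 fold changes in *P0-3.9GFPCre* were 0.11 ± 0.09 for *Id1*, 0.09 ± 0.08 for *Id2*, 0.03 ± 0.08 for *Id3* and -0.17 ± 0.16 for *Id4* (all SE). *Tgfb2* (-0.07 ± 0.07), *Bmpr1a* (0.05 ± 0.07), *Smad4* (-0.02 ± 0.08), *Smad7* (-0.19 ± 0.15) and *Ltbp1* (0.35 ± 0.24) did not pass either threshold. *Ltbp1* was at 0.63 without *FVB/N* replicate 2, 0.13 without *FVB/N* replicate 3 and 0.083 with the length offset.

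Between the 2 Cre lines, *Id1* and *Id3* were lower in *Le-Cre* without overlap of the pools, and neither passed adjustment. *Id1* was at 36.5, 36.4 and 40.4 CPM in *P0-3.9GFPCre* against the *Le-Cre* values given above, a log2 fold change of -0.31 ± 0.09 (SE; edgeR adjusted p = 0.430). *Id3* was at 105, 113 and 109 CPM in *P0-3.9GFPCre*, and its log2 fold change was -0.22 ± 0.08 (SE; edgeR adjusted p = 0.531). The corresponding difference for *Id2* was -0.15 ± 0.08 (SE) and that for *Id4* was 0.16 ± 0.16. *Id1* and *Id3* were the only 2 of 33 genes with an unadjusted p under 0.05, beside 7.88% of all tested genes in either direction and 4.25% in the lower direction, and this count was 1 without *Le-Cre* replicate 2 and 4 without *Le-Cre* replicate 3. Pools did not overlap for 5 of 33 genes (15.2%), beside 14.1% of all tested genes. The other 3 were higher in *Le-Cre*: *Bmp7* at 42.9, 42.0 and 37.2 CPM against 37.0, 36.4 and 35.5 CPM (log2 fold change 0.16 ± 0.08), *Acvr2a* with a log2 fold change of 0.13 ± 0.07 and *Fst* with 0.61 ± 0.29 (SE). With the length offset the value of *Bmp7* was 0.32 ± 0.11 (SE; edgeR adjusted p = 0.583). *Tgfb2* (0.11 ± 0.07), *Bmpr1a* (0.05 ± 0.07), *Smad4* (-0.01 ± 0.08), *Smad7* (-0.21 ± 0.15) and *Ltbp1* (-0.09 ± 0.23) had an unadjusted p above 0.05.

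The mean of *Smad7* in *Le-Cre* lay below that of *FVB/N* on the count scale and above it on the TPM scale. It had 11.4, 12.3 and 10.4 CPM in *FVB/N* and 9.31, 8.46 and 8.09 CPM in *Le-Cre*, with no overlap. The log2 fold change of counts was -0.40 ± 0.15 (SE; edgeR adjusted p = 0.550). On the TPM scale, however, its level was 6.74, 7.70 and 7.39 in *FVB/N* and 11.7, 7.69 and 7.99 in *Le-Cre*. The length that RSEM assigned to the gene, a mean over its isoforms weighted by their estimated levels, was 1843, 1775 and 1474 bases in *FVB/N*, 1355, 1526 and 1673 bases in *P0-3.9GFPCre* and 894, 1300 and 1090 bases in *Le-Cre*. All *Le-Cre* lengths were below all *FVB/N* lengths, a separation in either direction that 5.69% of all tested genes had in this comparison. Genes with the same length in every pool, such as *Id2* at 1270 bases, count in the total of that share but cannot separate. Lengths of *Bmpr1b* separated too, at 3393 to 3684 bases in *FVB/N* and 4093 to 4708 in *Le-Cre*. So did those of *Bmpr2*, at 12811.5 to 12899 bases in *FVB/N* and 12712 to 12795 in *Le-Cre*. With the effective length as an offset, the log2 fold change of *Smad7* turned to 0.30 ± 0.18 (SE). *Smad6* had a similar set of values: 4.38, 5.50 and 3.35 CPM in *FVB/N* against 3.70, 3.20 and 3.71 CPM in *Le-Cre*, lengths of 2029, 2971 and 2971 bases against 1480, 1311 and 2261 bases, and a log2 fold change of -0.32 ± 0.21 that became 0.38 ± 0.28 with the offset. The same offset moved *Bmpr1b* in *P0-3.9GFPCre* from -0.56 to -0.77 ± 0.23. *Id1* and *Id3* in *Le-Cre* against *P0-3.9GFPCre* were -0.31 and -0.20 with the offset. Whether the isoforms themselves differed between lines was not tested.

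**Figure D4:**
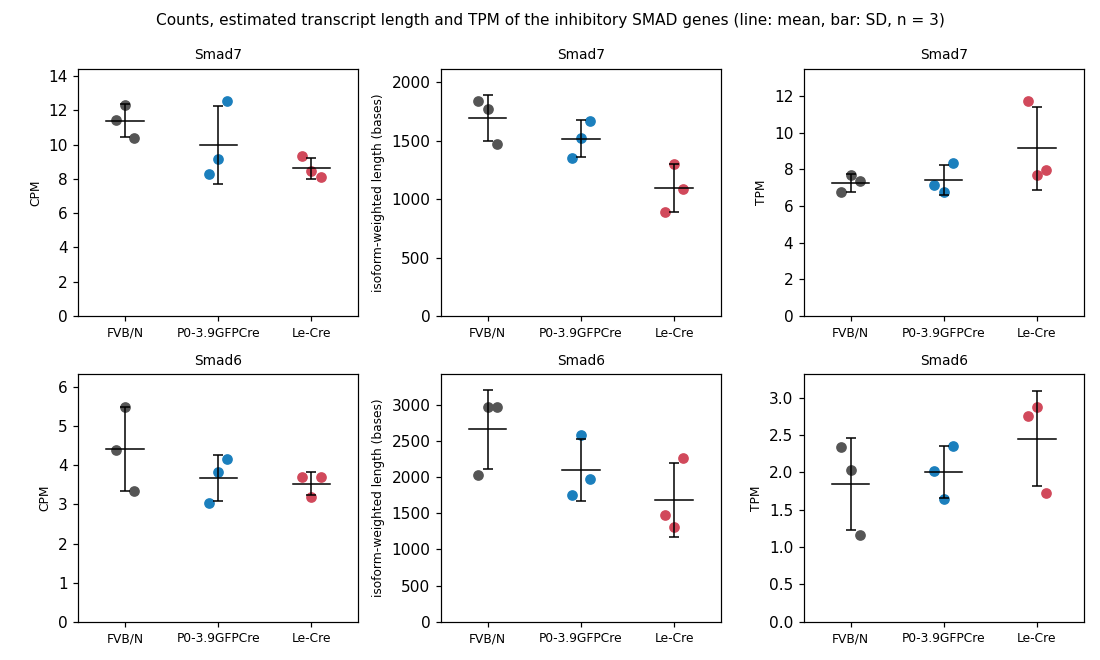
CPM, isoform-weighted length in bases and TPM of *Smad7* (top) and *Smad6* (bottom) in each pool, with the mean (line) and SD (bar) of 3 pools per line. For *Smad7*, *Le-Cre* has the lowest mean CPM (8.62) and the shortest mean length (1095 bases) but the highest mean TPM (9.14).

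Variation between pools of the same line set *Bmp4* and *Grem1* apart from the other genes. The pooled within-line SD of log2 CPM was 1.34 for *Grem1* and 1.03 for *Bmp4*, larger than in 98.4% and 96.9% of tested genes, whereas it was 0.05 for *Acvr2a* and *Smad5* and 0.06 for *Bmpr2*. *Bmp4*, which encodes the BMP that the optic vesicle supplies to the presumptive lens, was at 0.76, 1.60 and 0.29 TPM in *FVB/N*, 0.95, 2.52 and 1.54 TPM in *P0-3.9GFPCre* and 1.58, 3.03 and 0.35 TPM in *Le-Cre*. *Grem1* was at 0.28, 0.86 and 0.04 TPM in *FVB/N*, 0.47, 0.46 and 0.17 TPM in *P0-3.9GFPCre* and 0.33, 0.70 and 0.10 TPM in *Le-Cre*. In *FVB/N* and *Le-Cre*, replicate 2 was highest and replicate 3 lowest for both genes. The sum of 7 retina and ciliary epithelium markers was highest in replicate 2 and lowest in replicate 3 of the same lines, at 8.93, 11.7 and 8.71 TPM in *FVB/N* and 9.40, 13.1 and 8.08 TPM in *Le-Cre*, and it was 10.2, 10.3 and 8.46 TPM in *P0-3.9GFPCre*. Within that list *Wfdc1* was at 0.86, 2.11 and 0.64 TPM in *FVB/N*, 1.52, 1.67 and 1.33 TPM in *P0-3.9GFPCre* and 1.98, 3.20 and 0.76 TPM in *Le-Cre*, and none of the 7 markers had a mean under 0.1 TPM. *Wfdc1* was chosen after its values were seen, and other markers of the list had another order: *Otx2* was highest in replicate 3 and *Rcvrn* in replicate 1 of *FVB/N*, and *Rax* in replicate 1 of *Le-Cre*. The order of replicates 2, 1 and 3 was not particular to this list. It was also that of 6 summed red blood cell markers, at 108, 188 and 92.2 TPM in *FVB/N* and 155, 263 and 85.2 TPM in *Le-Cre*, and of the 5 lens epithelium markers, at 216, 232 and 213 TPM and 207, 212 and 186 TPM. *Mitf*, which is not restricted to the retina, supplied 5.70 to 7.55 TPM of the sum. The part of any of these markers in the *Bmp4* and *Grem1* values was not tested. The log2 fold change of *Bmp4* was 0.83 ± 0.66 (SE) in *Le-Cre* and 0.67 ± 0.67 in *P0-3.9GFPCre* against *FVB/N*, so differences of that size between lines could not be resolved.

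**Figure D5:**
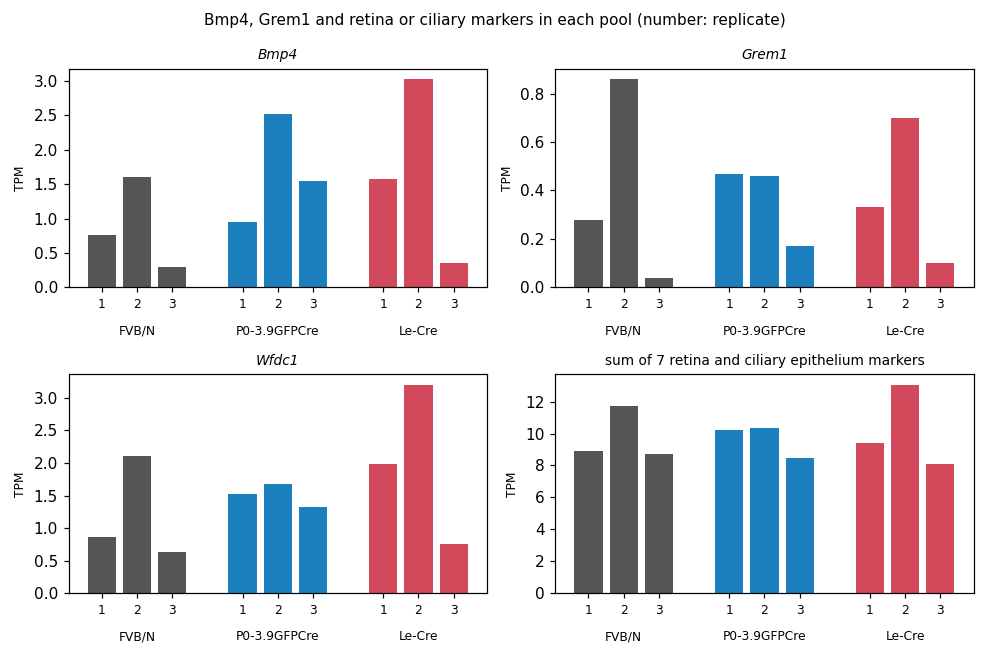
TPM of *Bmp4*, *Grem1*, the marker *Wfdc1* and the sum of 7 retina and ciliary epithelium markers, with 1 bar per pool and the replicate number under each bar. In *FVB/N* and *Le-Cre* all 4 values are highest in replicate 2 and lowest in replicate 3, for example *Bmp4* at 3.03 and 0.35 TPM in *Le-Cre*.

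Covariation of the 4 ID genes was examined on the log2 CPM scale over the 9 pools in 6 pairs. *Id2* and *Id3* had a Pearson r of 0.70 (exact permutation p = 0.0321, adjusted p = 0.193) and a Spearman rho of 0.53 (exact permutation p = 0.148, adjusted p = 0.443). Without the 2 pools farthest from the median of *Id2*, r was 0.55, and within lines it was 0.57. *Id1* and *Id3* had an r of 0.61 (exact permutation p = 0.0818, adjusted p = 0.245) and a rho of 0.60 (exact permutation p = 0.0968, adjusted p = 0.443). That r was 0.51 without the 2 pools farthest in *Id1*, both *Le-Cre*, and 0.01 within lines. No pair passed adjustment, on this scale or on that of TPM given further below.

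Other genes of the pathways were read from a list of 114 further ligands, receptors, antagonists, processing enzymes, SMAD cofactors and induced genes, of which 77 passed the filter. None passed the cutoff in any comparison. Between *Le-Cre* and *FVB/N*, 14 of the 77 (18.2%) had an unadjusted p under 0.05, 7 higher and 7 lower. The counts were 4 (5.19%) between *P0-3.9GFPCre* and *FVB/N*, 1 higher and 3 lower, and 5 (6.49%) between the Cre lines, 1 higher and 4 lower. The background shares for these counts are the 7.94%, 6.81% and 7.88% given above, of which 4.35%, 3.41% and 4.25% were lower. Whether the shares of this list differ from the background was not tested, and most of these genes are not named here. *Thbs1*, which encodes thrombospondin 1, an activator of latent TGF-beta, came closest to the cutoff in *Le-Cre*. It was measured at 142, 142 and 125 CPM in *FVB/N*, 130, 152 and 128 CPM in *P0-3.9GFPCre* and 89.6, 94.3 and 97.6 CPM in *Le-Cre*. All *Le-Cre* pools were below all others, the log2 fold change against *FVB/N* was -0.54 ± 0.08 (SE; edgeR adjusted p = 0.0497), and the size, 1.45-fold, was under 1.5-fold. Its adjusted p was at most 0.05 in 8 of 20 settings and ranged up to 0.950 once the Y-linked share entered as a covariate, while the log2 fold change stayed between -0.60 and -0.47. Of the single pools, leaving out any *FVB/N* or *Le-Cre* pool raised it above 0.05, as did leaving out *P0-3.9GFPCre* replicate 1 or 3. Against *P0-3.9GFPCre* the log2 fold change of *Thbs1* was -0.54 ± 0.08 (SE; edgeR adjusted p = 0.200).

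*Htra1*, which encodes a secreted protease that can cleave TGF-beta family proteins, was at 26.1, 23.0 and 25.5 CPM in *FVB/N*, 21.7, 20.4 and 28.0 CPM in *P0-3.9GFPCre* and 36.2, 33.2 and 33.2 CPM in *Le-Cre*. All *Le-Cre* pools were above all others, with a log2 fold change of 0.46 ± 0.11 against *FVB/N* (SE; edgeR adjusted p = 0.280) and 0.55 ± 0.11 against *P0-3.9GFPCre* (SE; edgeR adjusted p = 0.292). *Zfyve9*, which encodes the SMAD anchor SARA, was lower than in *FVB/N* by 0.34 ± 0.09 on the log2 scale in *Le-Cre* (SE; edgeR adjusted p = 0.331) and by 0.22 ± 0.09 in *P0-3.9GFPCre* (SE; edgeR adjusted p = 0.705), with no overlap in either case. The 3 genes with the smallest p were named per comparison, and the others so named were *Pcsk6*, a proprotein convertase gene, at -0.32 ± 0.13, and *Junb*, a TGF-beta-induced gene, at 0.62 ± 0.27, both in *P0-3.9GFPCre* against *FVB/N*, and *Fstl3*, a follistatin-like antagonist gene, at -0.48 ± 0.19 in *Le-Cre* against *P0-3.9GFPCre* (all SE). Their adjusted edgeR p values were 0.662, 0.705 and 0.544. *Junb* was higher by the same 0.62 ± 0.27 in *Le-Cre* against *FVB/N* (SE; edgeR adjusted p = 0.607), and each value was 0.96 without *FVB/N* replicate 1 and 0.39 without *FVB/N* replicate 3. *Fstl1*, a follistatin-like gene that the rule named in no comparison, was at -0.23 ± 0.06 in *Le-Cre* against *FVB/N* (SE, edgeR adjusted p = 0.331).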

How the data were processed

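RNA-Seq was analysed for 9 pools of whole newborn lenses, 3 per line. According to the submitters' notes and methods, polyadenylated RNA was sequenced as unstranded single-end reads, trimmed with Trimmomatic 0.36, aligned to GRCm38 with GSNAP and quantified with RSEM 1.3.0; the gene annotation is not given in the sources used here. The authors deposited RSEM tables with expected counts (estimated reads per gene, not normalized), TPM (scaled for length and library size), isoform-weighted lengths and posterior means. Totals were 20670968 to 28098059 expected counts per pool.

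Expected counts were rounded to whole numbers. Differences between lines were tested in R 4.3.3 with edgeR 4.0.16 (TMM, filterByExpr, one coefficient per line over 9 pools, glmQLFit, glmQLFTest) and Benjamini-Hochberg adjustment over 15557 genes, at the study's cutoff of 1.5-fold and adjusted p of at most 0.05. The study used DESeq2 1.10.1, and version 1.42.0 of DESeq2 served as an alternative. CPM are TMM-scaled counts, used between lines. TPM was used for levels between genes and in no test. Other alternatives changed the scaling, the filter, the samples fitted and covariates, and left out each pool in turn. The fit was also run on simulated counts, which held no differences in sex makeup or isoform length between pools. That run therefore cannot show how such differences affect the results. The p values measure the spread between these pools.

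Genes and lists were chosen with earlier results of these data known. Tests are given for genes with an unadjusted p under 0.05, for the highest gene of each role and for the 3 other pathway genes with the smallest p per comparison. *Tgfb3*, *Acvr2a*, *Bmp7*, *Fst*, *Smad6*, *Bmp4*, *Grem1*, *Fstl1*, *Gdf15* and the other ID genes were described further after their values were seen. Promoters came from a RefSeq table on GRCm38.p6, in which 3 of the 4 ID genes matched. One gene of the retina and ciliary marker list is not reported here.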

Additional observations from a re-analysis of the deposited data

Results flagged for a closer look

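For 2 genes the pools of the Cre lines lay on opposite sides of the *FVB/N* mean, 6.06% of the 33 tested genes beside 3.37% of all tested genes. *Id1* averaged 35.0 CPM in *FVB/N*, and all *P0-3.9GFPCre* pools (mean 37.7 CPM) were above and all *Le-Cre* pools (mean 30.4 CPM) below that value, while the *FVB/N* pools themselves, at 31.9 to 37.7 CPM, overlapped both groups. The difference between the Cre lines was -0.31 on the log2 scale, with an edgeR p of 0.00542 and an adjusted p of 0.430. *Fst* averaged 2.85 CPM in *FVB/N*, with all *Le-Cre* pools (mean 3.06 CPM) above and all *P0-3.9GFPCre* pools (mean 2.01 CPM) below, while the *FVB/N* pools, at 3.17, 2.11 and 3.27 CPM, overlapped both groups. Its difference between the Cre lines was 0.61 on the log2 scale, with an edgeR p of 0.0600 and an adjusted p of 0.661. Neither difference passed adjustment.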

How the results depend on the processing

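No gene of the 35 passed the cutoff under any of the 20 settings in any of the 3 comparisons, 60 results in all. Fold changes of named genes kept their sign in 666 cases and changed it in 18. Depth limited *Nog*, *Chrd*, *Bmp2*, *Smad9* and *Tgfbr2* (24 to 66 expected counts per pool). Counts were similarly low for *Tgfb1* (25.3 to 72.7), *Tgfb3* (34 to 66) and *Fst* (30 to 84). The spread between pools limited *Bmp4* and *Grem1*, and *Grem1* also had only 4 expected counts in *FVB/N* replicate 3. The number of all tested genes past the cutoff depended on the setting. For *Le-Cre* against *FVB/N* it was 10, and 131 without the filter, 5 with a mean of at least 10 counts, 54 with DESeq2 without a prior, 0 once the Y-linked share entered as a covariate, and 0 to 10 when 1 pool was left out. For *P0-3.9GFPCre* against *FVB/N* it was 0, and 93 without the filter, 4 and 1 with DESeq2 without and with a prior, and 0 to 14 with 1 pool left out, the highest without *FVB/N* replicate 2. For *Le-Cre* against *P0-3.9GFPCre* it was 0, and 123 without the filter, 38 and 4 with DESeq2, 31 with only the compared lines fitted, and 0 to 18 with 1 pool left out, again highest without *FVB/N* replicate 2. The cause was not tested. With DESeq2, or with only the compared lines fitted, an unadjusted p under 0.05 was reached by 2 of the 33 genes in *Le-Cre* against *FVB/N*, compared with 4, and by 1 with the effective length as an offset. With 1 pool left out the counts were 0 to 5, 1 to 6 and 1 to 4 in the 3 comparisons.

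With the effective length as an offset, *Smad6*, described after its values were seen, changed from -0.32 to 0.38 in *Le-Cre* against *FVB/N*. Among genes named by the rule, log2 fold changes with the offset were 0.30 for *Smad7* in *Le-Cre* against *FVB/N* and 0.34 against *P0-3.9GFPCre*, -0.035 for *Bmpr1a*, 0.026 for *Tgfb2* and 0.054 for *Smad4* in *P0-3.9GFPCre* against *FVB/N*, and 0.010 for *Ltbp1* between the Cre lines. With the Y-linked covariate they were 0.044, 0.020 and 0.024 for *Smad4* in the 3 comparisons and 0.064 for *Ltbp1* between the Cre lines. Leaving out 1 pool gave -0.016 to 0.079 for *Bmpr1a* and -0.33 to 0.087 for *Ltbp1* between the Cre lines, and for *Smad4* -0.099 to 0.033 in *Le-Cre* and -0.089 to 0.042 in *P0-3.9GFPCre* against *FVB/N* and -0.059 to 0.027 between the Cre lines. On the log2(TPM + 0.1) scale the r of *Id3* and *Id4* was -0.34, against 0.04 on CPM. For *Id2* and *Id3* the TPM scale gave an r of 0.68 and a rho of 0.35, and r was 0.12 without the 2 farthest pools. For *Id2* and *Id4* it gave an r of -0.73 (exact permutation p = 0.0261, adjusted p = 0.127), against -0.39 on CPM. Rescaling TPM without crystallin genes raised the summed level of the 35 genes in *FVB/N* from 669 to 1622 TPM.

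With the replicate number as a block, 2 of all tested genes passed in *Le-Cre* against *FVB/N*, against 10, and 0 of the 35 genes passed in any comparison. Deviations of pools with the same number correlated at a mean of 0.031 over 9 pairs, of which 3 exceeded 0.1. Those with different numbers correlated at -0.0155 over 18 pairs, of which 3 also exceeded 0.1. The labels tie the numbers to no litter, batch or day, so the numbers were not taken to pair the pools. Among pools of the other lines, the best match of 5 of the 9 pools had their own number. Whether this exceeds random matching was not tested.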
